A study of Mus musculus with 10 samples.

Results

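Genes for the proteins of the cytosolic ribosome were described across 10 RNA libraries of differentiating mouse embryonic stem (ES) cells. The members were chosen by symbol alone: every gene named Rpl or Rps followed by a digit, the stalk genes Rplp0, Rplp1 and Rplp2, and Rpsa. Rows with -ps in the symbol (2 rows, pseudogenes by the naming convention) and the kinase genes named Rps6k (10 rows) were left out. This gave 86 of the 21937 genes in the table, 52 named for the large subunit and 34 for the small subunit. Of these, 77 are core genes and 9 are paralogs or otherwise related genes that the symbol rule also takes in (Rpl3l, Rpl7l1, Rpl10l, Rpl22l1, Rpl36al, Rpl39l, Rps4y2, Rps27l and Rps19bp1).

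All cells had a C57BL/6 background, with a single library per condition at each time. In SFEB, a culture in which ES cells turn toward neuroectoderm, wild type (WT), Tet3 KO and Tet3 KO cells with Dkk were sampled on days 6 and 10. Dkk is a secreted protein that blocks Wnt ligands from acting on their receptors, and Tet3 is an enzyme that oxidizes 5-methylcytosine in DNA. Per the labels, the KO cells lost a floxed Tet3 exon after transient Cre expression. In a culture with FBS (fetal bovine serum), described as not permissive for neural differentiation, control and Tet3-overexpressing cells were sampled on days 4 and 7. The labels do not say how many ES cell clones were used, nor what drives the Tet3 transgene. Tet3 RNA over the whole gene was 0.96 and 5.87 RPKM in the control FBS libraries and 12.5 and 14.1 RPKM in the overexpressing ones (days 4 and 7). In SFEB, Tet3 was 8.11, 6.59 and 7.64 RPKM in WT, KO and KO with Dkk on day 6, and 10.2, 14.3 and 13.1 RPKM on day 10, and a value over the whole gene does not check the loss of 1 exon. The libraries held an estimated 10200000 to 44000000 reads each. RPKM is the number of reads of a gene scaled to the length of its transcript and to the reads of the library.

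Ribosomal proteins coat and stabilise the ribosomal RNA of the small subunit, which decodes the messenger RNA, and of the large subunit, which joins the amino acids. Their messenger RNAs are among the most abundant in growing cells and carry a TOP (terminal oligopyrimidine) tract, an unbroken run of C and T directly at the cap, through which TOR kinase signalling and the LARP1 protein set their translation. Pluripotent cells make ribosomes at a high rate, and neurons that have left the cell cycle make fewer.

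Promoter windows of some of the members are printed here because a pyrimidine run near the start site is a sequence feature that most of the members' promoters hold and the rule did not use. Sequences are from RefSeq, build GRCm38.p6, which held 76 promoters for 64 of the 86 members; 22 members were not matched. Each line gives 30 bases on the coding strand, 5′ to 3′, around the longest run of C and T within 50 bases either side of the annotated start, and capitals mark that run. The first 6 genes fell between days 6 and 10 of the SFEB culture (values below).
Rplp2 (chr7:141447636-141447665, plus strand): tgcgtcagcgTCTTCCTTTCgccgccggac
Rps12 (chr10:23787181-23787210, minus strand): caccgccggCCTTTTCCCCTgccgccgccg
Rpl14 (chr9:120571501-120571530, plus strand): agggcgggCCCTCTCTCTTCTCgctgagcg
Rpl6 (chr5:121204521-121204550, plus strand): cgctgccttagTTCTCTTTCCCgtcttgca
Rps10 (chr17:27635226-27635255, minus strand): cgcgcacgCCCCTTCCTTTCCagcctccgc
Rpl11 (chr4:136053357-136053386, minus strand): cggaagTCTCCCTCTCTCTTCCTgttctcc
The next 4 genes did not pass the test for that fall.
Rps7 (chr12:28635910-28635939, minus strand): tgtccccaCCTCTTTTCTTCCgccacccgg
Rpl39 (chrX:37085173-37085202, minus strand): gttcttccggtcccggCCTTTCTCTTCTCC
Rps15a (chr7:118116143-118116172, minus strand): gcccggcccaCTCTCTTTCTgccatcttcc
Rpl37a (chr1:72711275-72711304, plus strand): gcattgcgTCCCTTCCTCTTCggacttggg
The last 4 belong to the paralogs.
Rpl10l (chr12:66284428-66284457, minus strand): cagtctctatgaTTCCCgcaaggcttgatg
Rpl39l (chr16:10170192-10170221, plus strand): acacccactgCCTCTCCCTagctcccaggc
Rpl22l1 (chr3:28805499-28805528, plus strand): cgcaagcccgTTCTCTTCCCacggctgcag
Rps27l (chr9:66946054-66946083, plus strand): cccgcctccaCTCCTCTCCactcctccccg

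A run of 8 or more C or T on the coding strand stood within 50 bases of the start in 59 of the 76 member promoters (77.6%), against 35.7% of all 32851 promoters in the RefSeq table. Core genes without one in their window included Rplp0 and Rpsa (longest run of 7 bases), Rps3 and Rps13 (6 bases) and Rps28 (5 bases). The longest run had a median of 10 bases in the members and 7 bases in all promoters. The run began 5 bases before the annotated start in Rplp2 and 14 bases after it in Rpl11. In the windows above, which were chosen after these values were seen, the core genes held runs of 10 to 17 bases, whether or not they fell, and the single-exon gene Rpl10l held a run of 5 bases. Within the full promoters of 300 bases, on either strand, CCGGAAG (an ETS-type motif) was found in 34.2% of the member promoters and 8.9% of all, and AAGATGGC (a YY1-type motif) in 10.5% and 2.7%. TATAAA was found in 9.2% and 13.6%, and the E-box CACGTG, the site that MYC with MAX binds, in 10.5% and 7.2%. The reverse complement of CCGGAAG holds a short pyrimidine run; how many promoters hold both features was not counted. Run length and the change between days 6 and 10 had a Spearman rho of 0.094 over 62 members, given as a description.

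The members had short transcripts, with a median of 740 bases against 1462 bases for all genes. Only Rpl10l and Rps4y2 had a single exon, and 30 members held 58 annotated snoRNA genes, which guide rRNA modification and are usually cut from introns. Close copies are a known feature of these genes. At the median member, 53.5% of the transcript's 50-base words also occurred at another locus, and this was 50% or more in 48 members. How the reads with several matches were counted is not given in the sources used here, so single levels carry that uncertainty.

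In the median over the 10 libraries, the most abundant members were Rps14, Rps20, Rps2, Rpl41 and Rpl7. Rps14, a protein of the small subunit's platform, had a median of 3285 RPKM and ranged from 2307 to 6015 RPKM. Rps20, on the small subunit's head, had a median of 3241 RPKM and ranged from 882 to 5504 RPKM. Rpl41, the smallest ribosomal protein, had a median of 2652 RPKM and ranged from 980 to 6898 RPKM. These levels stood against a median over all genes of 1.04 to 2.16 RPKM in a library, and 28 to 40 of the 50 most abundant genes of each library were members. In all, 77 members were at 10 RPKM or more in every library and 68 at 100 RPKM or more.

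At the other end, 7 members stayed below 6 RPKM in every library, among them the core genes Rpl26, Rpl30, Rpl34, Rps23 and Rps27 and the muscle paralog Rpl3l. Rpl26 was listed at 0 in 8 libraries and reached 0.58 RPKM in the Tet3-overexpressing library of day 4. Rps23 lay between 0 and 0.56 RPKM and Rps27 between 0.15 and 1.79 RPKM. Their products are parts of every cytosolic ribosome, while 68 other members stood at 100 RPKM or more throughout. The share of 50-base words found elsewhere was 98.6% for Rps27, 71.3% for Rpl26, 51.7% for Rps23, 50.6% for Rpl34 and 47.8% for Rpl30. Over all 86 members that share and the median level had a Spearman rho of 0.171. The part of read counting in these low values was not tested.

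**Figure D1:**
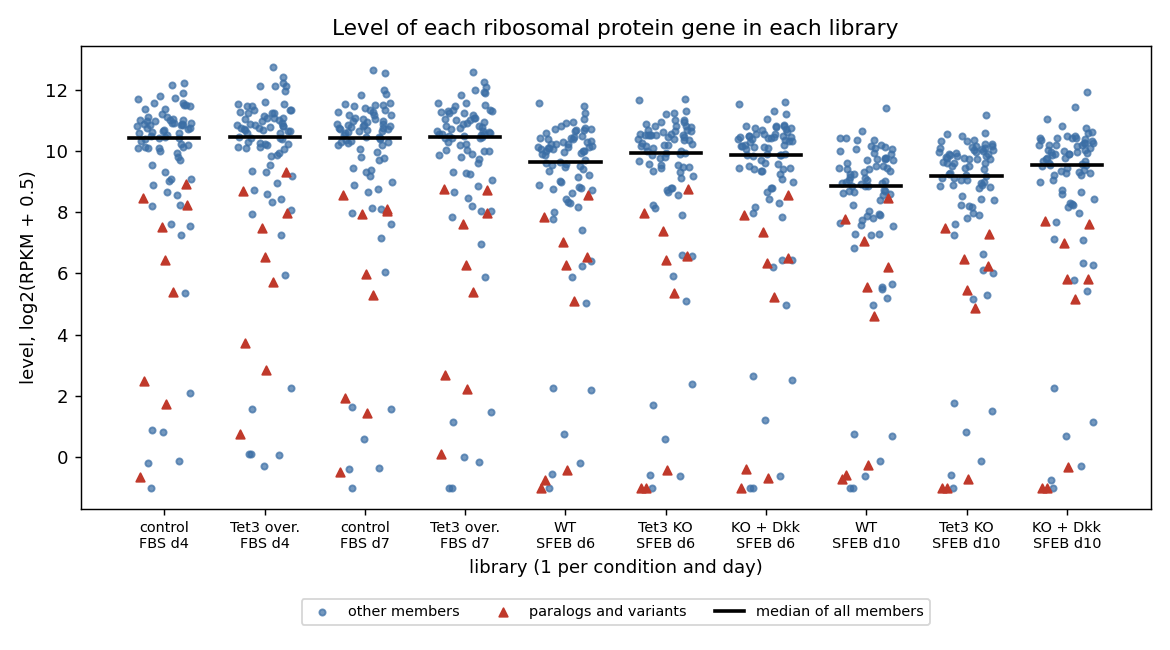
Level of each ribosomal protein gene as log2(RPKM + 0.5) (vertical axis) in the 10 libraries (horizontal axis, 1 library per condition and day). Each point is a gene, triangles mark the 9 paralogs and related genes, and black lines mark the median of the 86 members, which is highest in the 4 FBS libraries (1373 to 1408 RPKM) and lowest in WT on day 10 of SFEB (465 RPKM).

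The members' summed level fell into 3 ranges that followed culture and day. They made up 24.3%, 26.1%, 24.6% and 25% of the summed RPKM in the FBS libraries (control and overexpressing on day 4, control and overexpressing on day 7). On day 6 of SFEB the shares were 17.0% in WT, 19.4% in KO and 18.5% in KO with Dkk, and on day 10 they were 11.1%, 12.7% and 14.9%. The ranges did not overlap: the lowest FBS sum was 1.40 times the highest sum of SFEB day 6, and the lowest sum of day 6 was 1.10 times the highest of day 10. From the lowest library (WT on day 10) to the highest (Tet3-overexpressing on day 4) the summed RPKM differed 3.0 times. The ratio of the large-subunit sum to the small-subunit sum stayed between 1.20 and 1.34.

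**Figure D2:**
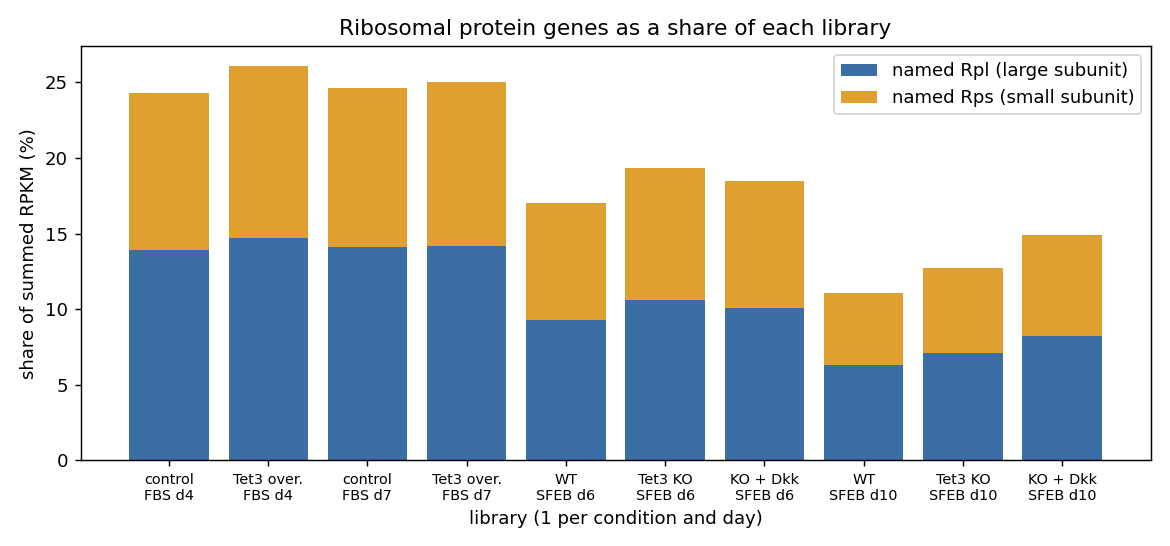
Share of the summed RPKM of each library (vertical axis, percent) that came from ribosomal protein genes, by library (horizontal axis). Bars stack genes named Rpl and Rps and have no error bar, since each is 1 library; they run from 11.1% in WT on day 10 of SFEB to 26.1% in Tet3-overexpressing cells on day 4 of FBS.

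Single members followed the sum. In 61 of the 83 members at 1 RPKM or more in some library, the lowest FBS library stood above the highest SFEB library, against 12.2% of all 13757 genes at that level. The reverse order was seen in 0 members, against 20% of all genes. The 61 include Rpl10l, Rpl39l and Rpl3l, which reached 1 RPKM only in FBS libraries and so could not show the reverse order. Rpl41 stood at 4630.0, 6898, 6446 and 6088 RPKM in the FBS libraries, in the order used above, and at most 2753 RPKM in SFEB. Rpl36, a large-subunit protein, showed the same order more widely, with 196, 326, 282 and 292 RPKM in FBS against 30.7 to 74.2 RPKM in SFEB. The cultures differ in medium, days and Tet3 manipulation, so a difference between them cannot be told apart from any of these. In bulk RNA, fewer cells of a type and less RNA per cell cannot be told apart either. The summed level of 9 pluripotency markers was 937 to 3748 RPKM in FBS and 59.9 to 146 RPKM in SFEB; its part in the culture difference was not tested.

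Between days 6 and 10 of the SFEB culture the members fell, and none rose past the test. The test was limma's moderated test on log2(RPKM + 0.5) over 13757 genes and all 10 libraries, with terms for culture, condition and day. No condition was repeated on a day, so its error (3 residual degrees of freedom) is the departure of the conditions from one common day effect, and p-values were adjusted by Benjamini-Hochberg over all genes. At an adjusted p below 0.05, 55 of 83 members were lower on day 10 and 0 higher, while 18.1% of all genes were called lower and 28.2% higher. The median day effect of the members was -0.60 on the log2(RPKM + 0.5) scale. Large-subunit genes fell in 31 of 50 cases (median -0.60) and small-subunit genes in 24 of 33 (median -0.58). The count of members that fell was 35 without the WT library of day 6 or that of day 10, 30 without the KO library of day 6 or that of day 10, and 14 with no filter on low levels. Among genes that hold a snoRNA, 25 of 29 fell, and among the others 30 of 54.

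The stalk of the large subunit, which recruits the elongation factors, is built on Rplp0 and carries Rplp1 and Rplp2. Rplp2 stood at 172, 243 and 232 RPKM on day 6 (WT, KO, KO with Dkk) and at 46.7, 98.0 and 136 RPKM on day 10, and fell by 1.31 (SE 0.20, adjusted p = 0.00249). Rplp1 stood at 1666, 1801 and 1774 RPKM and then at 856, 848 and 994 RPKM, and fell by 0.96 (SE 0.13, adjusted p = 0.00178). Rplp0 stood at 1017, 1309 and 1186 RPKM and then at 419.7, 689 and 826 RPKM, and fell by 0.91 (SE 0.16, adjusted p = 0.00472). For each of the 3 stalk genes, every day 10 library lay below every day 6 library.

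Elsewhere in the large subunit, Rpl14 stood at 524, 696 and 648 RPKM on day 6, then 191, 299.8 and 387 RPKM on day 10, and fell by 1.14 (SE 0.15, adjusted p = 0.00166). Rpl6, an RNA-binding protein near Rpl14 on the solvent side, had 749.7, 941 and 924 RPKM, then 302, 469.7 and 535 RPKM, and fell by 1.03 (SE 0.14, adjusted p = 0.00163). In both genes the WT library of day 10 was the lowest of all 10 libraries and the KO with Dkk library the highest of day 10. Rpl5 and Rpl11, which bind the small 5S RNA and can hold the p53 inhibitor Mdm2, are described here for that role, chosen after their values were seen. Rpl11 went from 1687, 1774 and 1746 RPKM to 961, 1139 and 1586 RPKM and fell by 0.53 (SE 0.17, adjusted p = 0.0383). Rpl5 went from 1385, 1517 and 1385 RPKM to 1157, 1112 and 1371 RPKM, a day effect of -0.24 (SE 0.14) that did not pass the test (adjusted p = 0.202).

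In the small subunit, Rps2, a protein at the messenger RNA entry channel, had the strongest fall of all members. It stood at 3025, 3248 and 3005 RPKM on day 6, then 1019.5, 1099 and 1391 RPKM on day 10, a fall of 1.41 (SE 0.17, adjusted p = 0.00111). Rps12 went from 1349.8, 1639 and 1454 RPKM to 527, 604 and 774 RPKM and fell by 1.24 (SE 0.15, adjusted p = 0.00110). Rps20 went from 2825, 3338 and 3143 RPKM to 882, 1557 and 1726 RPKM and fell by 1.21 (SE 0.19, adjusted p = 0.00307). The day 10 libraries of all 3 genes lay far below those of day 6. Rps6, the substrate of the S6 kinases downstream of TOR, went from 1191, 1462 and 1353 RPKM to 466, 739 and 945 RPKM and fell by 0.95 (SE 0.18, adjusted p = 0.00506).

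The highest day effects, none past the test, belonged to Rps15a (0.27, SE 0.16, adjusted p = 0.199), Rps14 (0.24, SE 0.20, adjusted p = 0.370), Rps7 (0.21, SE 0.12, adjusted p = 0.194) and Rpl37a (0.14, SE 0.20, adjusted p = 0.614). Rps7, which is needed for processing of the small subunit's RNA, stood at 984, 1019 and 932 RPKM on day 6, then 1177, 1063 and 1169 RPKM on day 10. Rps15a stood at 32.0, 34.1 and 30.6 RPKM and then at 36.2, 38.4 and 42.6 RPKM. These were the only 2 members with every day 10 library above every day 6 library, an order seen in 33.0% of all genes. The opposite order, every day 10 library below every day 6 library, held in 54 of 83 members and in 22% of all genes.

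**Figure D3:**
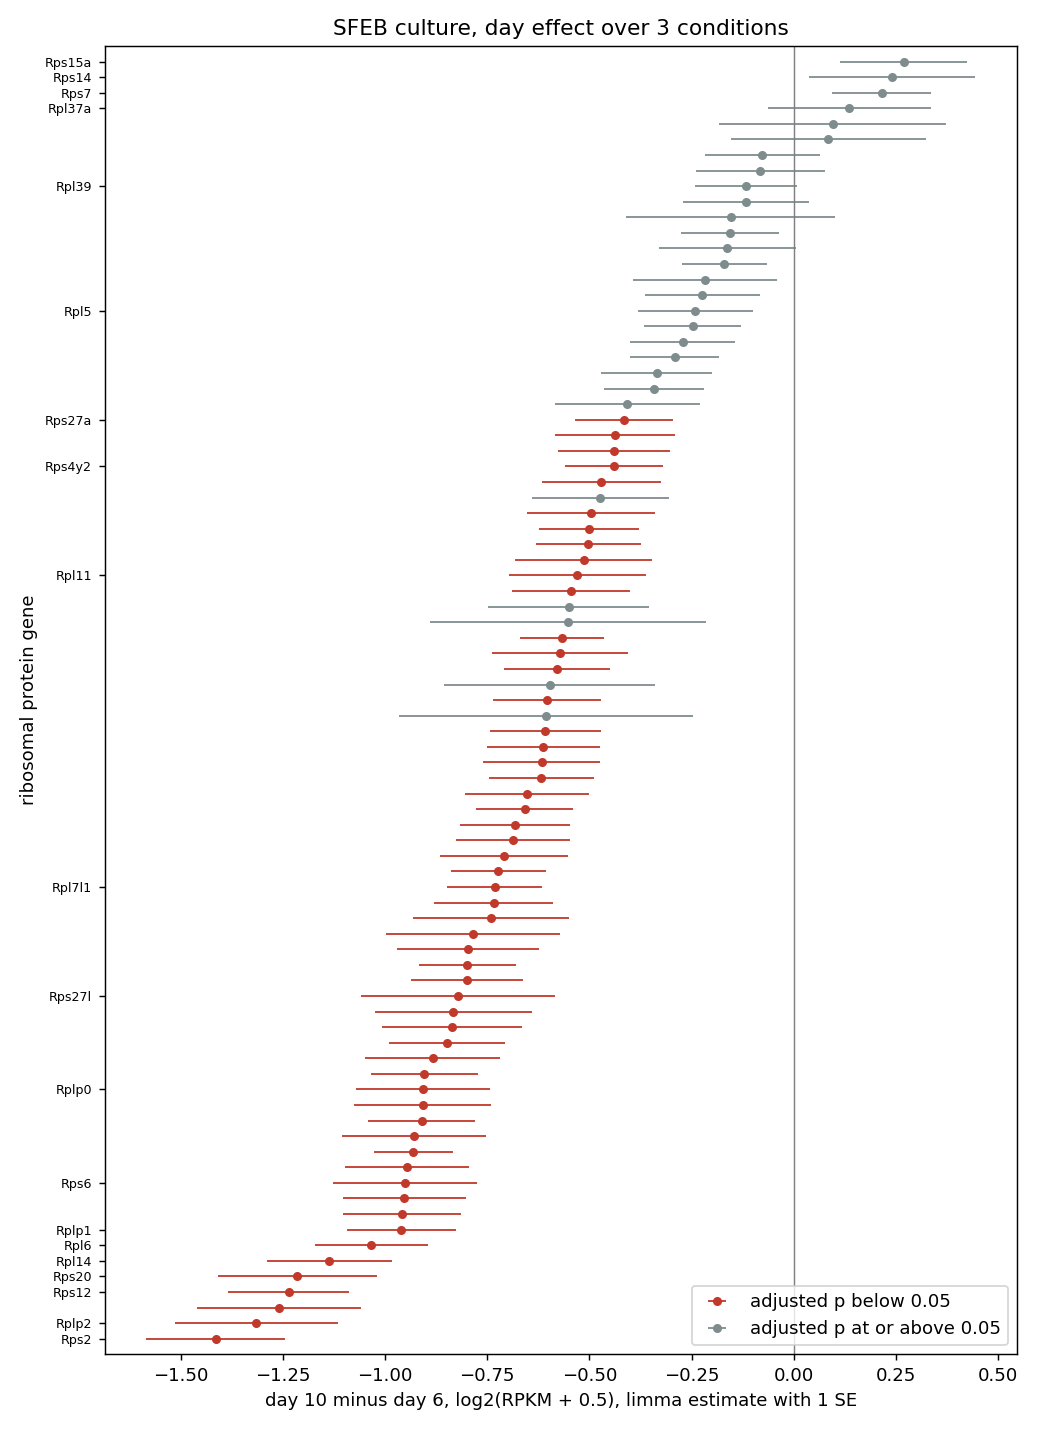
Day effect in the SFEB culture for the 83 members tested (vertical axis, sorted, with 20 of them labelled), as limma's estimate of day 10 minus day 6 in log2(RPKM + 0.5) (horizontal axis) with bars of 1 SE. Red points passed an adjusted p below 0.05; they are the 55 genes that fell, from Rps27a (-0.41) to Rps2 (-1.41).

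Within each condition the difference between the days rests on 2 libraries, so the 3 conditions are given side by side with no test. In WT the median difference of day 10 minus day 6 over 80 members was -0.83; 74 were below 0 (44.8% of the 12912 genes compared), 54 were lower by 1.5-fold or more (19.1%) and 26 by 2-fold or more (7.98%). In KO the median was -0.68, with 76 members below 0 (41.7% of all genes), 49 lower by 1.5-fold or more (17.6%) and 11 by 2-fold or more (8.01%). In KO with Dkk the median was -0.36, with 70 members below 0 (42.5% of all genes), 16 lower by 1.5-fold or more (16.5%) and 2 by 2-fold or more (6.81%). With median-of-ratios scaling that count of 16 was 29 and the median was -0.46. All genes compared had medians of 0.09, 0.16 and 0.14 in the same 3 pairs. The drop was smaller in KO with Dkk than in KO for 75 of the 80 members, against 47.5% of all genes, and 66 members were lower on day 10 in each of the 3 conditions, against 30.3% of all genes. Rps2 was lower by 2-fold or more in each of the 3 pairs, at -1.57, -1.56 and -1.11, and was the only member at 10 RPKM or more to pass 2-fold in KO with Dkk. Rps14 went the other way there, at 0.71 from 2389 to 3896 RPKM.

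Further members past 2-fold in the WT pair were spread over both subunits, and 8 of them are described here. Those not described include Rpl7 (-1.22), Rps9 (-1.29) and Rpsa (-1.14), and Rpsa also passed 2-fold in KO (-1.06). Rpl8, which lies near the catalytic centre of the large subunit, moved between days 6 and 10 from 729.9 to 337 RPKM (-1.11) in WT; in KO its values ran from 949.7 to 496 RPKM (-0.94). In the same large subunit, Rpl13 went from 2099 to 857 RPKM (-1.29), Rpl18 from 1127 to 467 RPKM (-1.27) and Rpl29 from 428 to 187 RPKM (-1.20) in WT. In the small subunit, Rps3a went from 1610.5 to 727 RPKM (-1.15) and Rps13 from 967 to 399.6 RPKM (-1.27) in WT. Rps28 and Rps29, both mutated in rare cases of Diamond-Blackfan anemia, were also lower on day 10, Rps28 going from 513 to 216 RPKM (-1.24) and Rps29 from 315 to 152 RPKM (-1.04) in WT. Of these 8 genes, Rps28 and Rps3a also passed 2-fold in KO, with 746 to 367 RPKM (-1.02) and 2056 to 994 RPKM (-1.05).

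Other genes of the ribosome pathway were taken from lists by function. Fau, which encodes a small-subunit protein and lies outside the symbol rule, did not pass the test (day effect of -0.38, adjusted p = 0.112). Of 40 ribosome biogenesis genes, 37 fell, with a median of -1.23, and 1 rose. Fbl, the rRNA methyltransferase, stood at 267.5, 286 and 316 RPKM on day 6, then 80.2, 93.4 and 129 RPKM on day 10, and fell by 1.54 (adjusted p = 0.000389). Rrn3, the initiation factor of RNA polymerase I, was the gene that rose, by 0.64 (adjusted p = 0.00838). The median of this list lay below the members' own median of -0.60; that difference was not tested.

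Of 19 translation factors and other genes with TOP tracts, 8 fell and 0 rose (median -0.43). Npm1, a nucleolar chaperone, fell by 1.58 (adjusted p = 0.000530), Eef1d, a subunit of the elongation factor 1 exchange complex, by 1.48 (adjusted p = 0.000482) and Pabpc1, the poly(A)-binding protein, by 1.34 (adjusted p = 0.000577). Eef1a1, the most abundant elongation factor gene, stood at 6117, 6186 and 5932 RPKM on day 6, then 5529, 5197 and 6016 RPKM on day 10 and did not pass the test (adjusted p = 0.590). Of 6 non-coding snoRNA hosts with TOP tracts, 4 fell (median -0.56), among them Gas5 by 0.50 (adjusted p = 0.00870).

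Upstream of the ribosomal protein messenger RNAs, 8 of 17 genes of TOR signalling fell and 1 rose. Eif4ebp1, the translation repressor that TOR phosphorylates, went from 66.9, 65.5 and 54.1 RPKM to 19.6, 16.0 and 15.2 RPKM (a fall of 1.85, adjusted p = 0.000170), and Larp1, the TOP-binding protein, from 43.1, 48.4 and 54.2 RPKM to 19.8, 22.9 and 21.0 RPKM (a fall of 1.17, adjusted p = 0.000986). Akt1 rose by 0.73 (adjusted p = 0.0391), and Mtor itself did not pass the test (-0.31, adjusted p = 0.124). In the MYC family, Myc fell by 1.47 (adjusted p = 0.00561) and Mycn by 1.0 (adjusted p = 0.00117), while their antagonists Mxd1, Mxd3, Mxd4 and Mxi1 rose, by 1.18 to 2.18. Mycl1 (0.18, adjusted p = 0.697), Mnt (0.16, adjusted p = 0.372) and Max (-0.07, adjusted p = 0.627) did not pass the test. Mycl1 stood at 52.5, 64.2 and 56.0 RPKM on day 10 and Mycn at 24.1, 19.3 and 24.3 RPKM. Of 8 genes of the p53 response to ribosomal stress, 3 fell, Trp53 by 1.28 (adjusted p = 0.000298), and Cdkn1a, its usual target, did not pass the test (-0.21, adjusted p = 0.305).

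Lists outside the cytosolic ribosome did not all move this way. Of 76 genes for mitochondrial ribosomal proteins, 23 fell and 6 rose (median -0.22), and of 72 respiratory chain genes 0 fell and 27 rose (median 0.26). Of the 4380 other genes with a median transcript under 1 kb, 961 fell and 1063 rose (median 0.04). The cell makeup moved with the day as well: 7 of 7 neuron markers rose and 9 of 9 proliferation genes fell. Neuron markers summed to 76.0 to 166 RPKM on day 6 and to 1300 to 1606 RPKM on day 10, and proliferation genes to 1509 to 1772 RPKM and then 659 to 1045 RPKM. Their part in the fall of the ribosomal protein genes was not tested.

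The members were higher in Tet3 KO than in WT cells of the same SFEB day, by differences that did not pass the test over both days. On day 6, 76 of 80 members were above WT (49.2% of all 12912 genes), with a median of 0.27 against 0.00 over all genes. On day 10, 64 of 80 were above WT (54.8% of all genes), with a median of 0.35 against 0.06; with each library rescaled by its median ratio to the other libraries this split was 55 of 80. Across both days, 60 members were higher each time and 0 lower each time, while 34.1% of all genes were higher and 29.4% lower each time. The summed level was 1.18 times WT on day 6 and 1.19 times WT on day 10. Other lists differed from WT too. On days 6 and 10, 55 and 53 of 76 mitochondrial ribosomal protein genes were higher in KO (medians of 0.13 and 0.13). Of 71 respiratory chain genes, 54 and 53 were higher (0.20 and 0.21). Of 40 ribosome biogenesis genes, 18 and 15 were higher (-0.03 and -0.12). The differences of the 2 days, which share no library, had a Pearson r of 0.578 over 77 members at 10 RPKM or more.

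A difference of 1.5-fold or more was rarer. On day 6 only Rpl17 and Rpl23a, which lie by the exit of the peptide tunnel, were higher by that fold (9.6% of all genes were), and on day 10 there were 23 such members (17.9% of all genes). At 2-fold or more there were 0 members on day 6 (4.88% of all genes) and 5 on day 10 (8.26% of all genes). Rpl17 stood at 475, 816 and 699 RPKM on day 6 (WT, KO, KO with Dkk) and 201, 469 and 504 RPKM on day 10, so KO exceeded WT by 0.78 and 1.22 on the log2(RPKM + 0.5) scale. Rpl23a stood at 946, 1478 and 1173 RPKM and then at 511, 901 and 864 RPKM, with differences of 0.64 and 0.82. The share of 50-base words found elsewhere was 78.7% for Rpl17 and 82.6% for Rpl23a. Over 77 members that share and the difference between KO and WT had a Spearman rho of 0.319 on day 6 and 0.196 on day 10. The part of read counting in these differences was not tested. In limma's average over both days, Rpl17 was higher by 1.0 (SE 0.21, adjusted p = 0.110) and Rpl23a by 0.73 (SE 0.16, adjusted p = 0.127), and these were the smallest adjusted p of the members. So 0 of 83 members were called (0.196% of all genes were called higher and 0.0145% lower), and 21 had an unadjusted p below 0.05, all higher in KO, against 9.41% of all genes. That count of 21 was 10 with no filter on low levels. It was lower without the WT library of day 10 or either KO library, and higher without the WT library of day 6. The members' median in limma's average was 0.24 with all libraries. It was 0.15 without the WT library of day 10 and 0.39 without that of day 6. Without the KO library of day 10 it was 0.33, and without that of day 6 it was 0.18. On day 10, Rps10, mutated in Diamond-Blackfan anemia, was at 957 RPKM in KO and 412 RPKM in WT (1.21), and Rplp2 at 98.0 and 46.7 RPKM (1.06).

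KO libraries also differed from WT in the summed levels of several marker lists. The 9 mesoderm and fibroblast markers summed to 257 RPKM in KO and 7.8 RPKM in WT on day 6, and to 598 and 37.9 RPKM on day 10. With Dkk the sums were 24.5 and 60.4 RPKM. Meox1 was at 162 RPKM in KO and 0.27 RPKM in WT on day 6, and Col3a1 at 382 and 20.5 RPKM on day 10. Mesp1 was listed at 0 in the WT and KO libraries of day 10. Neuron markers summed to 76.0 RPKM in KO and 166 RPKM in WT on day 6, and neural progenitor markers to 220.5 and 390.3 RPKM. By day 10 the neuron sums were 1299.7 RPKM in KO and 1453.5 RPKM in WT, and the neural progenitor sums 964.3 and 852.0 RPKM. On day 10 striated muscle markers summed to 124 RPKM in KO and 5.3 RPKM in WT, and proliferation genes to 659 and 1045 RPKM. The part of these differences in that of the ribosomal protein genes was not tested.

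Dkk was followed by lower values on day 6 and higher values on day 10. On day 6, 67 of 80 members were lower in KO with Dkk than in KO (47.8% of all genes), by a median of -0.07, and 2 members of low level, Rpl34 and Rps27, were higher by 1.5-fold or more (5.79% of all genes) and 0 by 2-fold or more (2.18% of all genes). On day 10, 75 of 80 were higher (48.6% of all genes), with a median of 0.27 against -0.01 over all genes; this split was 65 of 80 with each library rescaled to the same summed RPKM. Taken by member, 64 were lower on day 6 and higher on day 10, in the same 4 libraries. The share of all genes with that order was not counted. Higher on both days were 11 members (28.7% of all genes), and lower on both were 3 (28.1% of all genes). Also higher with Dkk on day 10 were 67 of 76 mitochondrial ribosomal protein genes (median 0.20). So were 53 of 71 respiratory chain genes (0.10) and 33 of 40 ribosome biogenesis genes (0.19). On day 6 the numbers higher in these 3 lists were 34, 27 and 31. Higher by 1.5-fold or more were 6 members on day 10 (4.39% of all genes), namely Rpl41, Rps14, Rpl37a, Rps15, Rpl36 and Rpl19. Rpl41 stood at 979.8, 1309.8 and 2753 RPKM in WT, KO and KO with Dkk on day 10, so Dkk exceeded KO by 1.07, the only member past 2-fold (1.7% of all genes). Averaged over both days, limma called 0 of 83 members (0.0145% of all genes were called higher and 0.116% lower), 1 had an unadjusted p below 0.05 (Rpl36, higher, against 1.89% of all genes), and the smallest adjusted p was 0.872; with 1 library left out that count was 0 to 7, the highest without the KO with Dkk library of day 6.

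Set against WT, KO with Dkk was higher in 71 of 80 members on day 6 (52.2% of all genes) and in 74 of 80 on day 10 (52.5% of all genes), with medians of 0.18 and 0.61. On day 6, Rpl27 alone was higher by 1.5-fold or more (5.71% of all genes) and 0 members by 2-fold or more (1.58% of all genes). On day 10, 41 members were higher by 1.5-fold or more (15.5% of all genes), 13 of them by 2-fold or more (4.59% of all genes), and 1, Rps27l, was lower by 1.5-fold or more (7.95% of all genes). The largest differences at 10 RPKM or more were those of Rplp2 (136 against 46.7 RPKM, 1.53), Rps10 (1166 against 412 RPKM, 1.5), Rpl41 (1.49), Rps19 (641 against 245 RPKM, 1.39), Rpl17 (1.32) and Rps9 (1039 against 416 RPKM, 1.32). Rps19 is the gene most often mutated in Diamond-Blackfan anemia. On day 10, 67 of 76 mitochondrial ribosomal protein genes were also higher than in WT (median 0.37), 25 of them by 1.5-fold or more. Of 71 respiratory chain genes, 57 were higher (0.355), 25 of them by that fold. Of 40 ribosome biogenesis genes, 18 were higher (-0.07), 6 of them by that fold. In limma's average over both days 0 of 83 members were called (0.00727% of all genes were called higher and 0.0% lower), with 29 at an unadjusted p below 0.05, all higher, against 7.44% of all genes, and a smallest adjusted p of 0.249. That count of 29 was 2 without the WT library of day 10, 3 without the KO with Dkk library of day 10, 43 without the KO with Dkk library of day 6 and 13 with no filter on low levels. The 3 comparisons within a day share libraries, and by order of levels, WT was lowest, KO with Dkk between and KO highest for 58 of 80 members on day 6 (21.4% of all genes), while WT was lowest, KO between and KO with Dkk highest for 59 of 80 on day 10 (22.8% of all genes). The KO with Dkk library of day 10 was also read more deeply, at an estimated 37000000 reads against 10200000 to 11300000 in the other SFEB libraries; the part of depth was not tested.

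**Figure D4:**
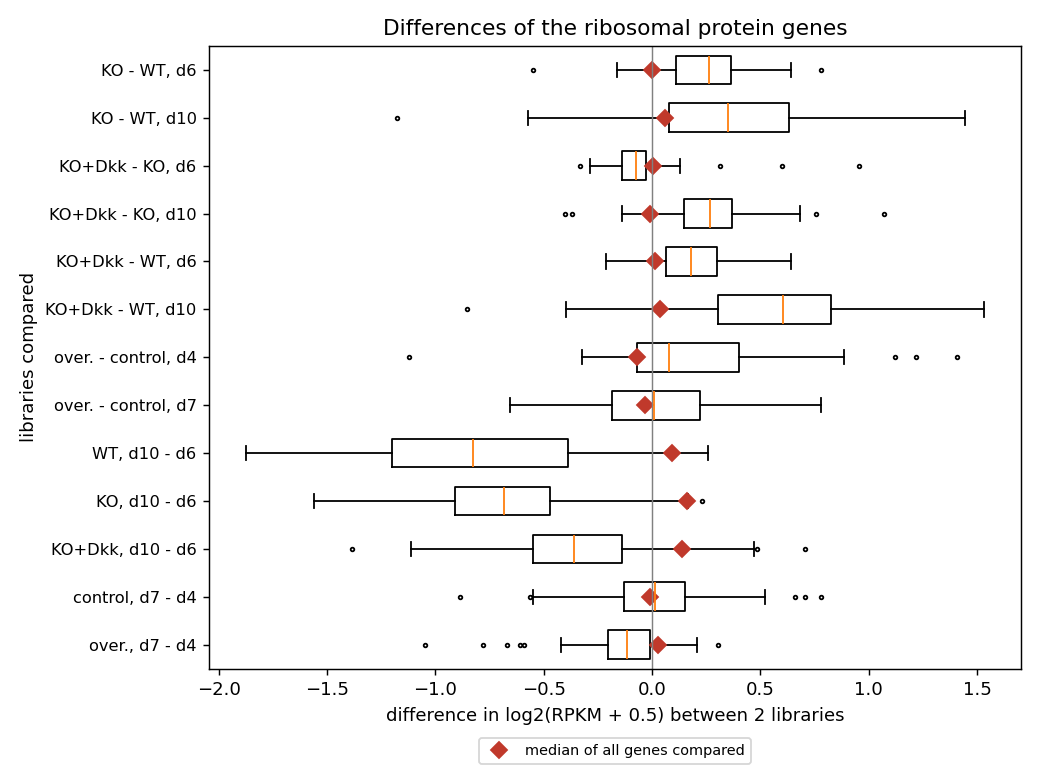
Differences between 2 libraries in log2(RPKM + 0.5) (horizontal axis) for the members at 1 RPKM or more in that culture (80 in SFEB, 83 in FBS), by comparison (vertical axis). Boxes span the quartiles with the median as a line, whiskers reach at most 1.5 box lengths, dots lie beyond, and red diamonds mark the median of all genes compared; the 3 boxes of day 10 minus day 6 lie below 0 and the boxes of the FBS culture include or lie close to 0.

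In the FBS culture the members as a group hardly differed between Tet3-overexpressing and control cells. On day 4, 52 of 83 were higher in overexpressing cells (40.7% of the 12387 genes compared), with a median of 0.08 against -0.07 over all genes. On day 7, 43 were higher (47.8% of all genes), with a median of 0.01 against -0.03. With median-ratio rescaling the split on day 4 was 64 of 83. Higher by 1.5-fold or more were 10 members on day 4 (5.84% of all genes) and 4 on day 7 (16.2% of all genes), and lower by that fold were 1 (10.7% of all genes) and 3 (20.6% of all genes). Past 2-fold, 3 members were higher on day 4 (1.72% of all genes) and 0 on day 7 (6.96% of all genes). These 3 were Rpl10l, Rpl39l and Rpl3l, and Rpl3l reached 1 RPKM only in the overexpressing library of day 4. The differences of the 2 days, which share no library, had a Pearson r of 0.66 over 77 members. Over both days limma called 0 of 83 (0.0436% of all genes were called higher and 0.0509% lower), with 12 higher (7.65% of all genes) and 1 lower (12% of all genes) at an unadjusted p below 0.05 and a smallest adjusted p of 0.105, that of Rpl37. The 12 higher members were 2 without the control or the overexpressing library of day 4, 8 without either library of day 7 and 6 with no filter on low levels.

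Between days 4 and 7 the members' median differed by 0.01 in control cells, where 43 of 83 were higher (49.1% of all genes), 3 by 1.5-fold or more (20.4%) and 0 by 2-fold or more (11.5%). The control median had a sign that turned (-0.02) when each library was rescaled to the same summed RPKM. In overexpressing cells the median was -0.11 and 66 of 83 were lower on day 7 (45.6% of all genes), or 55 of 83 with that rescaling, 5 by 1.5-fold or more (4.3% of all genes) and 1 by 2-fold or more (1.2% of all genes). limma called 0 members for the day (0.422% of all genes were called higher and 0.0291% lower), with 4 lower at an unadjusted p below 0.05 (6.79% of all genes), 1 without either overexpressing library and 2 without either control library, and a smallest adjusted p of 0.113. The 40 ribosome biogenesis genes had a median difference between overexpressing and control cells of 0.19 on day 4, with 2 higher by 1.5-fold or more (5.84% of all genes), and of 0.74 on day 7, with 25 higher by that fold (16.2% of all genes). limma called 0 of the 40 over both days, and their difference from the members was not tested. The control library of day 7 held 7347 RPKM of 7 red blood cell markers, against 1.1 to 9.4 RPKM in the other FBS libraries, and its part in these differences was not tested.

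Of the members, 4 differed by 1.5-fold or more between overexpressing and control cells in the same direction on both days, and 3 of these are paralogs. The share of all genes that did so was not counted, so the 4 are named as a description only. Rpl10l, an intronless copy of Rpl10 known from male germ cells, stood at 5.15, 12.7, 3.33 and 5.87 RPKM (control and overexpressing on day 4, then on day 7), an estimated 232, 288, 92 and 104 reads, and at 0.27 RPKM or less in every SFEB library. Rpl39l, the testis paralog of Rpl39, stood at 2.79, 6.66, 2.23 and 4.19 RPKM in FBS and at 0.11 to 0.33 RPKM in SFEB. Rpl3l, the striated muscle paralog of Rpl3, stood at 0.14, 1.20, 0.21 and 0.57 RPKM in FBS and at 0 in 5 of the 6 SFEB libraries. These 3 were the higher ones (differences of 1.22 and 0.73, 1.12 and 0.78, 1.41 and 0.59), and Rps27, at 0.31 to 1.26 RPKM, was the lower one. In limma's average none of the 3 passed the test (adjusted p = 0.173, 0.163 and 0.191). Rpl3l rests on an estimated 8 to 37 reads in these libraries. It met the filter of 1 RPKM only through the overexpressing library of day 4, where it was highest, so its difference cannot count as support. The same holds for Rps27, which in FBS reached 1 RPKM only in the control libraries (1.26 and 1.02 RPKM), where it was higher. Rps27 rests on an estimated 19, 2, 10 and 3 reads in the FBS libraries, in the order used above.

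Rps4y2, at higher levels, was also higher in overexpressing cells on both days. This single-exon gene on chromosome 6, a copy of Rps4x that RefSeq lists as Rps4l and GENCODE as a transcribed processed pseudogene, stood at 483, 643, 262 and 427 RPKM in FBS, at 92.0, 94.3 and 90.5 RPKM on day 6, then 74.4, 74.6 and 56.3 RPKM on day 10 of SFEB. It amounted to 12.8% to 29.6% of the Rps4x level in FBS and 4.18% to 6.57% in SFEB, and 18% of its 50-base words occur elsewhere. Overexpressing cells exceeded control cells by 0.41 and 0.71 (limma's average 0.56, SE 0.15, adjusted p = 0.132). In the 4 FBS libraries the pluripotency markers summed to 3413, 3748, 937 and 2472 RPKM, the same order as Rps4y2, while Rpl10l and Rpl39l shared with them only the highest and the lowest library; the part of undifferentiated cells was not tested.

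The other paralogs were present in every library. Rpl22l1 stood at 38.8% to 85.7% of the level of Rpl22, highest in WT on day 10 (133 against 155 RPKM), and Rpl36al at 54.6% to 92.0% of Rpl36a, also highest there. Rpl7l1 stood at 2.30% to 5.63% of Rpl7 and fell by 0.73 between days 6 and 10 (SE 0.12, adjusted p = 0.00300). Rps19bp1, a binding partner of Rps19 that is not a ribosomal protein, stood at 24.2 to 52.8 RPKM. Rps27l, a paralog of Rps27 and known p53 target, stood at 302, 250.3, 278 and 250.3 RPKM in FBS, 375, 429 and 379.6 RPKM on day 6, then 356, 157 and 197 RPKM on day 10. Its day 10 value was 1.18 lower in KO than in WT, where it was the only member lower by 1.5-fold or more (7.38% of all genes were), and it fell by 0.82 over the 3 conditions (SE 0.24, adjusted p = 0.0279). Among all 9, Rpl7l1, Rps4y2 and Rps27l passed that test, and of their 9 parent genes tested, 6 did.

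Members differed in how closely they followed the median of the members in each library. After that median was subtracted, the 5 narrowest ranges were those of Rpl11 (0.28), Rps3, Rpl22, Rps16 and Rpl3 (0.39) on the log2 scale. Rpl11 stayed 0.86 to 1.14 above the members' median, and Rps3, a protein of the entry channel with DNA repair activity, 0.15 to 0.47 below it. The 5 widest were those of Rps4y2 (2.6), Rps27l (2.11), Rpl36 (1.95), Rpl39 (1.55) and Rps7 (1.39). Rpl39, which lines the peptide tunnel, changed little in itself, with 1378, 1523 and 1424 RPKM on day 6, then 1370.0, 1301 and 1315 RPKM on day 10 (-0.12, SE 0.12, adjusted p = 0.481), and so moved up against the falling median. Among the 77 members at 10 RPKM or more throughout, the ratio of the highest to the lowest library ranged up to 11.4 (Rps4y2).

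**Figure D5:**
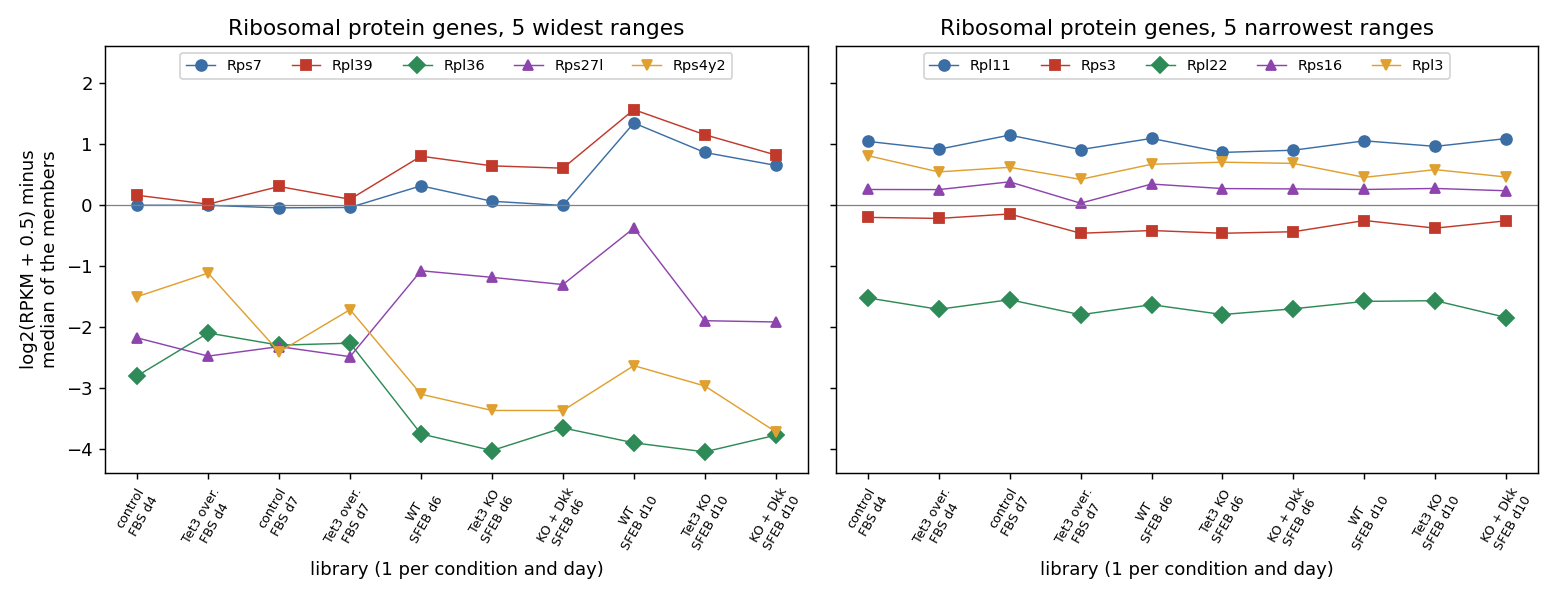
Level of 10 members relative to the median of all members of the same library, in log2(RPKM + 0.5) (vertical axis), across the 10 libraries (horizontal axis). Lines join the values of a gene, left for the 5 widest ranges (1.39 to 2.6) and right for the 5 narrowest (0.28 to 0.39), whose lines run nearly level.

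Outside the members, the 10 genes at 10 RPKM or more in every library whose level was most like the members' median over the 10 libraries, by Pearson r among 4287 genes, were Mrpl2 (0.990), Supt5h (0.983), Polr1d (0.982), Mrpl40 (0.979), Spr (0.978), Rps6ka1 (0.977), Rexo4 (0.977), Prkcsh (0.976), Rabggtb (0.976) and Lonp1 (0.976). Mrpl2 stood at 70.0, 68.1, 66.2 and 70.6 RPKM in FBS, 44.6, 48.0 and 42.9 RPKM on day 6 and 24.8, 31.4 and 38.7 RPKM on day 10. Like the members, Mrpl2 was highest in FBS and lowest on day 10 of SFEB. Since it was picked for its likeness to the members in these libraries, that order was largely built in.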

How the data were processed

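RNA was extracted with an RNeasy Plus Mini kit and sequenced as SOLiD total RNA libraries, per the labels' protocols. The authors deposited 1 table of RPKM values for 21937 genes in 10 libraries. Per the submitters' processing notes the build was mm9 and HTSeq was used; which aligner, annotation and gene lengths were used, and what was done with reads of several matches, is not given in the sources used here. The table gives no reads, so depth was estimated from the steps of values at 1 RPKM or less. These were 143 to 401 values a library, from among 3932 genes with 1 annotated transcript. The estimates were 10200000 to 44000000 reads a library. There 62.1% to 76.6% of values came out whole to within 0.15 read, against a median of 23.0% to 25% over the totals tried. Each total was chosen for the best fit, so a higher share there was built in. A share of 62.1% to 76.6% was too low to recover counts, so no count test was used.

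Values were taken as log2(RPKM + 0.5) for genes reaching 1 RPKM in any library of the comparison, so folds of low genes are understated. The 10 columns were matched to the samples by name, and 0 other columns of sample values were present. The fit was limma 3.58.1 in R 4.3.3, with culture, condition within culture and day within culture as terms and 3 residual degrees of freedom; adjusted p are limma's, by Benjamini-Hochberg over all 13757 genes. There is 1 library per condition and day, so p-values measure the scatter around these terms and no replicate check is possible. Single pairs of libraries have no test. The fit was tested on simulated data that followed the same additive terms. That test cannot show how the fit does when the day effect differs between conditions.

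Members named are the 5 highest and 5 lowest by median level, the paralogs and their parents, those past 1.5-fold the same way on both days or past 2-fold in 1 comparison at 10 RPKM or more, the 5 calls of smallest adjusted p, and the 5 widest and 5 narrowest departures; the 10 genes most like their median were added, with the extremes of 20 lists. Other genes named were chosen after their values were seen, and some genes the rule names are not reported here. Members and lists were chosen with earlier results of these data known. Annotation for transcript length, exons, snoRNAs and 50-base words was GENCODE vM21, matched by symbol for 86 members. Promoters are from RefSeq on GRCm38.p6, not the build of the table, and no coordinates were converted. Other tools were Python 3.11.15, pandas 2.3.3, numpy 2.4.6, scipy 1.17.1 and matplotlib 3.10.9. Alternatives were other scalings (equal summed RPKM, median of ratios), pseudocounts of 0.1 and 1, a fit within each culture, filters of 5 RPKM and none, a 2-fold threshold, other totals for the share, and leaving out each library.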

Additional observations from a re-analysis of the deposited data

Results flagged for a closer look

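In the Tet3 KO cells the members' median difference between cells with and without Dkk had opposite signs on the 2 days: -0.074 on day 6 and 0.267 on day 10, in log2(RPKM + 0.5). The members' median difference between days 4 and 7 of the FBS culture was 0.013 in control cells and -0.113 in Tet3-overexpressing cells. Both pairs were singled out because the signs differ between 2 settings of the same comparison. Each value rests on 2 libraries, and neither difference was tested.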

How the results depend on the processing

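Of 393 values recomputed under the alternatives, 346 were labelled the same, 46 moved and 1 reversed, and the cause was not tested. A count was the same if within a ratio of 1.5 of the main one, a median difference if within 0.183. Many of the same values were limma counts of 0 members under both settings. The shares of summed RPKM were listed as moved without a comparison. The tally is therefore no measure of how firm the results are. With a 2-fold in place of a 1.5-fold threshold, the members past it were 0 and 5 for KO over WT (days 6 and 10), 0 and 1 for KO with Dkk over KO, 0 and 13 for KO with Dkk over WT, and 3 and 0 for overexpressing over control cells (days 4 and 7). Between the days of SFEB they were 26 (WT), 11 (KO) and 2 (KO with Dkk), and between the days of FBS 0 (control) and 1 (overexpressing). With median-of-ratios scaling the members past 1.5-fold were 14 for KO over WT on day 10 and 29 for the days of KO with Dkk. Scaling to equal summed RPKM gave 3 for KO with Dkk over KO on day 10 and 3 for the days of overexpressing cells, and turned the control median between days 4 and 7 to -0.023. A pseudocount of 1, and likewise a filter at 5 RPKM, gave 1 for KO with Dkk over KO on day 6 and 3 for the days of overexpressing cells. The median of all genes also shifted with the scaling: KO day 10 minus day 6 was 0.162, 0.009 by median-of-ratios and 0.25 at equal summed RPKM, while the members' median relative to it was -0.846, -0.855 and -0.842.

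The members called lower on day 10 of SFEB were 14 with no filter on low levels and 30 to 55 when each library was left out in turn; with a condition left with 1 library, that library is assumed to vary like the others. Without paralogs and members below 10 RPKM the shares of summed RPKM were 24.0%, 25.7%, 24.4% and 24.7% in FBS, 16.8%, 19.1% and 18.3% on day 6 and 10.9%, 12.6% and 14.7% on day 10 of SFEB. With the 10 most abundant other genes left out of the total they were 25.8%, 27.6%, 26.0% and 26.4%, then 18%, 20.5% and 19.5%, then 11.5%, 13.3% and 15.5%. No paired analysis was possible because each condition has 1 library a day and the labels give no replicate numbers that pair them. Depth limits the members under 6 RPKM, and without replicate cultures no difference can be set against culture-to-culture spread.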
